A study of Mus musculus with 24 samples.

Results

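Transcripts of 10 genes that detect RNA inside the cell or carry the resulting signal to the nucleus were followed in hepatocytes of aged mice. They are the sensors Ifih1, Ddx58, Dhx58 and Zbp1, the adaptor Mavs, the interferon regulatory factors Irf3, Irf7, Irf1 and Irf9, and Stat2. The genes were chosen by symbol from the 55421 genes of the count and FPKM tables, and all 10 were among the 13847 genes with enough counts to be tested. Hepatocytes were isolated by collagenase perfusion of the liver and Percoll centrifugation from 24 male C57BL/6J mice, with 1 library of polyadenylated RNA per animal. All mice received either vehicle or encapsulated rapamycin (eRapa, 42 ppm), an inhibitor of the kinase mTOR, from 4 months of age. At 18 months, 8 vehicle animals stayed on normal diet (ND+veh), 7 vehicle animals were switched to a high-fat diet (60% of calories as fat) over the last 9 weeks (HFD+veh), and 9 eRapa animals were moved to the same high-fat diet with eRapa (HFD+eRapa). The HFD+eRapa animals had therefore taken the drug long before the diet changed, and they differed from ND+veh in both diet and drug. The comparisons ask whether the high-fat diet moved these transcripts and whether they stood elsewhere in animals that took eRapa.

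As background, Ddx58 encodes RIG-I and Ifih1 encodes MDA5, helicases that bind viral or misplaced double-stranded RNA in the cytosol. Both signal through the mitochondrial adaptor MAVS to kinases that activate IRF3 and IRF7, the factors that switch on type I interferon genes. Secreted interferon acts back on its receptor, whose kinases activate a complex of STAT2, IRF9 and a partner STAT that binds the interferon-stimulated response element (ISRE). Most sensors and IRF7 are themselves interferon-stimulated, whereas IRF3 and MAVS are commonly present without stimulation.

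RefSeq promoters (build GRCm38.p6, from 250 bases before to 50 bases after a start site) were found for 8 of the 10 members, all but Dhx58 and Zbp1. They were searched on both strands for the ISRE letters GAAANNGAAA and for the gamma-activated sequence (GAS) letters TTCNNNGAA. The 4 windows below hold the matches found in the members, shown with the matched letters in capitals because they are the places where the factors of this pathway are known to bind related sequence. Each is written along the strand of its gene.
Ifih1: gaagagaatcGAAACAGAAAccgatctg
Ddx58: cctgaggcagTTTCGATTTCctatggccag
Stat2: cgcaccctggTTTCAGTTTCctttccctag
Irf1: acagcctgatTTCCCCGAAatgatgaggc
The Ifih1 window (chr2:62646206-62646233, minus strand) holds an ISRE match that begins 33 bases after the start site. In Ddx58 (chr4:40239804-40239833, minus strand) the match begins 3 bases after the start site and reads on the opposite strand. In Stat2 (chr10:128270266-128270295, plus strand) it begins 222 bases before the start site, also on the opposite strand. The Irf1 window (chr11:53769914-53769942, plus strand) holds a GAS match that begins 90 bases before the start site. Among all 32851 RefSeq promoters of the same length, 3.44% held the ISRE letters and 8.30% the GAS letters. The promoters of Mavs, Irf3, Irf7 and Irf9 held neither, which says only that these exact letters are not in those windows, and no member's promoter held both.

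The libraries held 17.7 to 25.9 M counts (M, units of 1000000), and levels are given as CPM, counts per M counts of the library size after edgeR's TMM scaling. The 9 hepatocyte markers measured, among them Alb and Apoa1, summed to between 57730 and 173500 CPM in every library. RNA of other liver cells was also present and moved with the groups. Summed CPM of 14 macrophage markers, such as Adgre1 and Clec4f, had a lowest, median and highest value of 75.5, 353 and 1786 in ND+veh, 364, 3724 and 7905 in HFD+veh, and 65.4, 331 and 1542 in HFD+eRapa. Of these 14 markers, 5 were called above ND+veh in HFD+veh and 11 lower with eRapa than in HFD+veh. Dendritic cell, neutrophil, B cell and cholangiocyte markers were likewise higher in HFD+veh, with 4 of 5, 2 of 3, 2 of 2 and 3 of 3 tested markers called. Only 1 of 10 T and NK cell markers could be tested, and their summed CPM had a median of 1.12 in ND+veh, 7.78 in HFD+veh and 1.75 in HFD+eRapa, with a highest value of 56.9 in HFD+veh replicate 6. In HFD+eRapa all 10 endothelial and all 10 stellate cell markers were called lower than in HFD+veh, and 7 of the stellate cell markers were also lower than in ND+veh. None of the markers was at 0 in every library, and the part that these cells had in the differences of the members was not tested. Each call that was lost in a fit with an immune marker score (the mean z-score of 25 macrophage, lymphocyte, neutrophil and dendritic cell genes) as a covariate is given with its adjusted p from that fit for the members, and the lists are given with their counts in it.

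In HFD+veh against ND+veh, 7 of the 10 members rose and none fell, namely Ifih1, Ddx58, Dhx58, Zbp1, Irf7, Irf1 and Irf9. Over all tested genes 25.9% were called in this comparison and 16.0% were called higher. In HFD+eRapa against HFD+veh, those 7 members were lower and none was higher, where 32.0% of all genes were called and 21.1% were called lower. Both comparisons use the same HFD+veh animals, so an animal that is high there pushes both differences. In HFD+eRapa against ND+veh only Irf1 was called, and it was lower, with 13.5% of all genes called and 6.54% called lower. At an unadjusted edgeR p under 0.05, Mavs and Irf3 would also have passed in HFD+veh against ND+veh, with lower values, and Irf9 between HFD+eRapa and ND+veh, with higher values. A gene is termed called where edgeR's quasi-likelihood test gave a Benjamini-Hochberg adjusted p under 0.05 over all tested genes. The median log2 fold change of the 10 members was 1.11, -1.12 and -0.13 in these comparisons, against 0.05, -0.04 and -0.03 over all tested genes. Because RNA was measured in bulk, more cells of a type and more RNA per cell cannot be told apart in any of these values, nor can fewer cells and less RNA per cell.

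**Figure D1:**
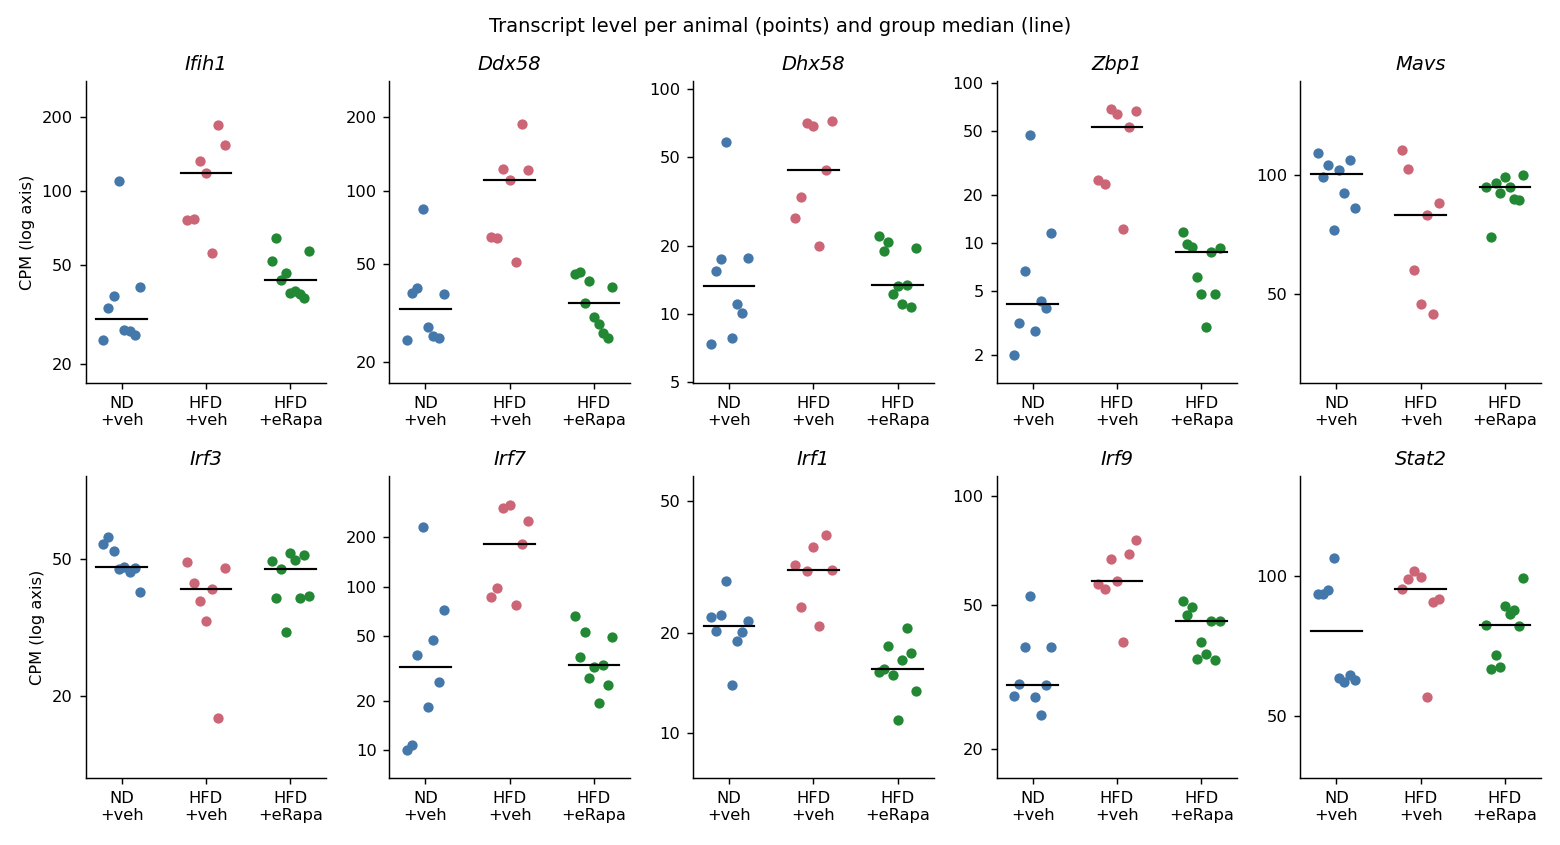
CPM of the 10 members (log axis, 1 panel per gene) in each animal of ND+veh (8 points), HFD+veh (7) and HFD+eRapa (9), with a line at the group median. In the panels of Ifih1, Ddx58, Dhx58, Zbp1, Irf7 and Irf9 a single ND+veh animal (replicate 4) sits among the HFD+veh animals while the other 7 lie below all of them.

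Ifih1 (chr2:62595798-62646255, minus strand, 17 exons once isoforms are merged) had a lowest, median and highest level of 25.0, 30.5 and 110.2 CPM in ND+veh. In HFD+veh the same values were 56.1, 118 and 186 CPM, and in HFD+eRapa they were 36.9, 43.8 and 64.4 CPM. All 7 HFD+veh animals were above the ND+veh median, but ND+veh replicate 4 was higher than 3 of them. Ifih1 was 2.78-fold above ND+veh in HFD+veh (log2 fold change 1.48 ± 0.29 SE, edgeR adjusted p = 0.0016). It was lower with eRapa than in HFD+veh (-1.30 ± 0.28, edgeR adjusted p = 0.00206), with 7 of 9 eRapa animals below every HFD+veh animal, but this second call did not hold in the immune score fit (-0.81, edgeR adjusted p = 0.118). Between HFD+eRapa and ND+veh the log2 difference was 0.18, with a 95% interval of -0.39 to 0.74 (edgeR adjusted p = 0.75), although all 9 eRapa animals were above the ND+veh median.

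Ddx58 (chr4:40203773-40239828, minus strand) moved almost in step with Ifih1. Its level was 24.6, 32.9 and 84.2 CPM in ND+veh (lowest, median and highest), 51.2, 110.3 and 187 CPM in HFD+veh, and 25.2, 34.9 and 46.6 CPM in HFD+eRapa. The highest eRapa animal was below the lowest HFD+veh animal, so these groups did not overlap, which held for 4 of the 10 members and for 1.29% of all tested genes in this direction. Ddx58 rose 2.71-fold in HFD+veh (log2 fold change 1.44 ± 0.27, edgeR adjusted p = 0.00112) and was lower with eRapa than in HFD+veh by a log2 difference of -1.53 ± 0.27 (edgeR adjusted p = 0.000365). Against ND+veh, HFD+eRapa differed by -0.09 (95% interval -0.62 to 0.44, edgeR adjusted p = 0.88).

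Dhx58 (chr11:100694884-100704271, minus strand) encodes LGP2, a relative of RIG-I and MDA5 without a signalling domain that tunes both. It was the weakest expressed of the helicases, at 7.38, 13.3 and 58.1 CPM in ND+veh, 20.0, 43.9 and 72.5 CPM in HFD+veh, and 10.8, 13.4 and 22.3 CPM in HFD+eRapa. ND+veh replicate 4 exceeded 4 of the 7 HFD+veh animals, and 7 of the 9 eRapa animals lay below every HFD+veh animal. The rise with the diet was 2.63-fold (log2 fold change 1.39 ± 0.38, edgeR adjusted p = 0.0121) and the difference between HFD+eRapa and HFD+veh was -1.59 ± 0.37 (edgeR adjusted p = 0.003). Neither call held in the immune score fit (0.95, edgeR adjusted p = 0.141, and -1.03, edgeR adjusted p = 0.147). HFD+eRapa and ND+veh differed by -0.20 (95% interval -0.93 to 0.53, edgeR adjusted p = 0.787). An antisense gene, Dhx58os, shares 4.31% of its exonic bases and had 42 counts in all 24 libraries together.

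Zbp1 (chr2:173206612-173218923, minus strand) encodes a sensor of left-handed nucleic acid that can start necroptosis through RIPK3. It had the largest differences of the 10 members in both comparisons with HFD+veh. Its level was 1.99, 4.13 and 47.2 CPM in ND+veh, 12.2, 52.9 and 68.6 CPM in HFD+veh, and 2.98, 8.83 and 11.7 CPM in HFD+eRapa. HFD+eRapa and HFD+veh did not overlap, and in ND+veh all animals but replicate 4 were at or below 11.5 CPM. Zbp1 rose 4.34-fold with the diet (log2 fold change 2.12 ± 0.57, edgeR adjusted p = 0.0115) and was 5.92-fold lower with eRapa than in HFD+veh (-2.57 ± 0.56, edgeR adjusted p = 0.00206). Neither call held in the immune score fit (1.41, edgeR adjusted p = 0.107, and -1.58, edgeR adjusted p = 0.107). Without ND+veh replicate 4 the rise was 3.14 on the log2 scale. The difference between HFD+eRapa and ND+veh was -0.45 (95% interval -1.54 to 0.64, edgeR adjusted p = 0.654) and turned to 0.61 without that animal.

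Mavs (chr2:131234063-131248025, plus strand), the adaptor onto which RIG-I and MDA5 signal, was not called in any comparison. It was at 72.6, 100.9 and 114 CPM in ND+veh, 44.5, 79.2 and 116 CPM in HFD+veh, and 69.8, 93.3 and 100.2 CPM in HFD+eRapa. HFD+veh animals spanned the widest range, with replicates 6, 4 and 3 below every ND+veh animal and replicate 1 above all of them. The log2 difference between HFD+veh and ND+veh was -0.35 (95% interval -0.69 to -0.01, edgeR adjusted p = 0.116), and it passed the threshold without HFD+veh replicate 1 (-0.48, edgeR adjusted p = 0.0252) or replicate 2 (-0.44, edgeR adjusted p = 0.0468) and with limma on log2(FPKM + 1) (-0.42, limma adjusted p = 0.0472). HFD+eRapa differed from HFD+veh by 0.25 (95% interval -0.08 to 0.58, edgeR adjusted p = 0.243) and from ND+veh by -0.10 (95% interval -0.42 to 0.22, edgeR adjusted p = 0.751).

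Irf3 (chr7:44997648-45002848, plus strand), a factor that is activated by phosphorylation, lay close to Mavs in pattern. Its level was 40.0, 47.2 and 57.7 CPM in ND+veh, 17.4, 40.8 and 48.9 CPM in HFD+veh, and 30.8, 46.7 and 52.0 CPM in HFD+eRapa. Only HFD+veh replicate 6, the animal with the highest macrophage marker sum, fell far outside the others. Irf3 differed by -0.36 between HFD+veh and ND+veh (95% interval -0.69 to -0.04, edgeR adjusted p = 0.0893), and the difference passed the threshold only where HFD+veh replicate 1 was left out (-0.43, edgeR adjusted p = 0.0468). The differences of HFD+eRapa were 0.20 from HFD+veh (95% interval -0.11 to 0.52, edgeR adjusted p = 0.322) and -0.16 from ND+veh (95% interval -0.46 to 0.15, edgeR adjusted p = 0.552). In the fit that held the immune marker score, the difference between HFD+eRapa and HFD+veh turned negative for both Irf3 (-0.10) and Mavs (-0.08).

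Irf7 (chr7:141262706-141266481, minus strand), the interferon-stimulated partner of IRF3, reached the highest level of all members in HFD+veh. It was at 10.1, 32.2 and 230.2 CPM in ND+veh, 77.2, 181 and 315 CPM in HFD+veh, and 19.4, 33.0 and 65.7 CPM in HFD+eRapa. The ND+veh animals spread widely, from replicate 1 at the lowest value to replicate 8 at 71.5 CPM and replicate 4 above 4 of the 7 HFD+veh animals, whereas no eRapa animal reached the lowest HFD+veh animal. Irf7 was 3.31-fold above ND+veh in HFD+veh (log2 fold change 1.73 ± 0.54, edgeR adjusted p = 0.0235). This call was lost without HFD+veh replicate 3 (1.53, edgeR adjusted p = 0.0566) or replicate 4 (1.52, edgeR adjusted p = 0.0567), and without ND+veh replicate 4 the difference grew to 2.51. It was also lost with no filter on low counts (edgeR adjusted p = 0.0563), with only these groups fitted (edgeR adjusted p = 0.0609) and in the immune score fit (1.03, edgeR adjusted p = 0.225). In HFD+eRapa it was 4.93-fold lower than in HFD+veh (-2.30 ± 0.53, edgeR adjusted p = 0.0029), a call that did not hold in the immune score fit (-1.22, edgeR adjusted p = 0.215). The difference from ND+veh was -0.57 (95% interval -1.61 to 0.46, edgeR adjusted p = 0.516).

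Irf1 (chr11:53770014-53778374, plus strand), best known as a responder to interferon gamma and a driver of antigen presentation genes, moved less but with little spread. Its level was 13.9, 21.0 and 28.6 CPM in ND+veh, 21.0, 31.0 and 39.4 CPM in HFD+veh, and 11.0, 15.5 and 20.7 CPM in HFD+eRapa. HFD+eRapa and HFD+veh did not overlap, and 5 of 7 HFD+veh animals were above every ND+veh animal. Irf1 rose 1.45-fold with the diet (log2 fold change 0.54 ± 0.14, edgeR adjusted p = 0.0114) and had the smallest adjusted p of the 10 members between HFD+eRapa and HFD+veh (-0.94 ± 0.14, edgeR adjusted p = 8.26e-05). The rise was not called in the immune score fit (0.43, edgeR adjusted p = 0.0986) or in any of the 3 limma fits of FPKM (limma adjusted p from 0.0716 to 0.0795). Irf1 was the only member called between HFD+eRapa and ND+veh (-0.41 ± 0.14, edgeR adjusted p = 0.0488), with all 9 eRapa animals below the ND+veh median but only 2 below every ND+veh animal. That last call was lost in 16 of the 24 fits that left out a single library, with adjusted p-values up to 0.0972.

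Irf9 (chr14:55603571-55610030, plus strand) and Stat2 (chr10:128270559-128292849, plus strand) encode subunits of the same ISRE-binding complex, and their transcripts went apart. Irf9 was at 24.9, 30.2 and 52.9 CPM in ND+veh, 39.5, 58.2 and 75.8 CPM in HFD+veh, and 35.2, 45.1 and 51.4 CPM in HFD+eRapa. The HFD+eRapa animals stood between the other groups, with all 9 above the ND+veh median and below the HFD+veh median. Irf9 rose 1.78-fold in HFD+veh (log2 fold change 0.83 ± 0.15, edgeR adjusted p = 0.000628), the smallest adjusted p of the 10 members in that comparison, and was lower with eRapa than in HFD+veh (-0.49 ± 0.14, edgeR adjusted p = 0.0117). The latter call did not hold in the immune score fit (-0.35, edgeR adjusted p = 0.219). Its difference between HFD+eRapa and ND+veh was 0.34 (95% interval 0.05 to 0.63, edgeR adjusted p = 0.115), and it was called higher without ND+veh replicate 4 (0.45, edgeR adjusted p = 0.022). Irf9 shares 2.28% of its exonic bases with Rnf31 on the same strand.

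Stat2 was at 59.2, 76.2 and 109.5 CPM in ND+veh, 54.9, 93.6 and 102 CPM in HFD+veh, and 62.9, 78.3 and 99.2 CPM in HFD+eRapa. In ND+veh, replicates 1 to 4 were at 91.4, 91.3, 93.2 and 109.5 CPM. Replicates 5 to 8 were at 60.1, 59.2, 61.0 and 59.7 CPM, so no ND+veh animal was near the group median. What set these animals apart was not tested. The ranges of the 3 groups overlapped, and HFD+veh replicate 5 was the lowest of all 24 animals. ND+veh replicates 5 to 8 were below every HFD+eRapa animal, while ND+veh replicates 1 to 4 lay within or above the HFD+eRapa range. The differences from ND+veh given next are taken over both sets of ND+veh animals. Stat2 was not called in any comparison, with log2 differences of 0.19 for HFD+veh against ND+veh (95% interval -0.12 to 0.51, edgeR adjusted p = 0.353), -0.20 between HFD+eRapa and HFD+veh (95% interval -0.50 to 0.11, edgeR adjusted p = 0.323) and less than 0.01 in size for HFD+eRapa against ND+veh (95% interval -0.30 to 0.29, edgeR adjusted p = 0.995). The first of these intervals leaves out a rise of the size seen for Irf9. Stat2 holds an ISRE match in the promoter window searched and was not called, while the windows of Irf7 and Irf9 hold none and these genes were called. The other way round, Ifih1 and Ddx58 hold an ISRE match and Irf1 a GAS match and were called, and Mavs and Irf3 hold neither and were not called. The Irf9 windows begin after the gene start printed above, so bases before that start were not searched. The Stat2 window searched ends before the gene start printed above. Whether these letters bear on the levels was not tested.

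**Figure D2:**
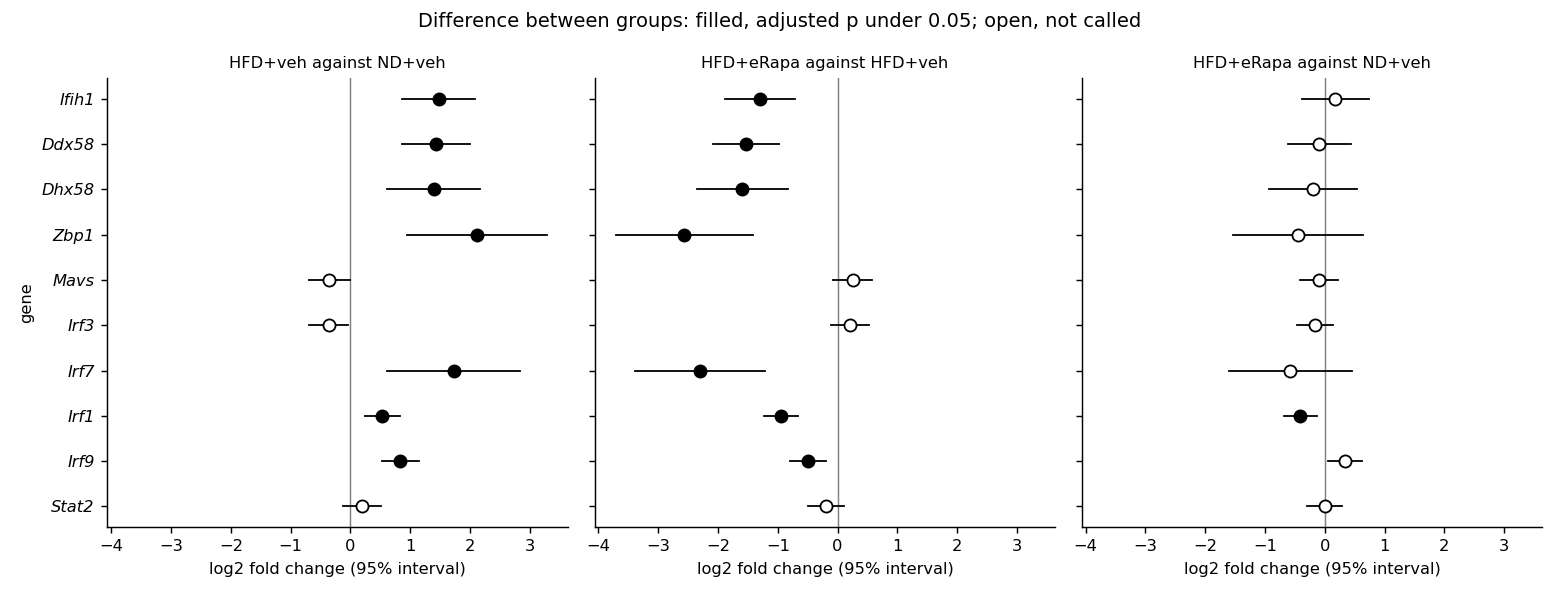
Log2 fold change of each member (points) with its 95% interval (lines) in the 3 comparisons, filled where the edgeR adjusted p was under 0.05. Ifih1, Ddx58, Dhx58, Zbp1, Irf7, Irf1 and Irf9 are filled to the right in the first panel and to the left in the second, Mavs, Irf3 and Stat2 are open in all 3 panels, and Irf1 is the only filled point in the third.

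A few animals stood apart in more than 1 gene at a time. ND+veh replicate 4 had the highest CPM of its group for 8 of the 10 members and the lowest for Mavs, although in FPKM the lowest Mavs was that of replicate 8. The hepatocyte marker sum of replicate 4, 61590 CPM, was the lowest of that group. Without ND+veh replicate 4, every HFD+veh animal exceeded every ND+veh animal in CPM for 6 members (Ifih1, Ddx58, Dhx58, Zbp1, Irf7 and Irf9), where 2.25% of all tested genes did. With it no member reached that separation, which 1.21% of tested genes showed. The animal was left out here because it was high for these same members, and the 2.25% covers genes that had no part in that choice. The separation without it is therefore a description and not a test. In FPKM, ND+veh replicate 8 exceeded HFD+veh replicate 5 for Zbp1 (11.3 against 11.1), as did ND+veh replicate 3 for Irf9 (16.7 against 15.2). HFD+veh replicate 5 had the lowest level of its group for 8 of the 10 members. With both ND+veh replicate 4 and HFD+veh replicate 6 left out, a choice made after the data were seen, 7 members were still called above ND+veh in HFD+veh and 7 lower with eRapa than in HFD+veh. Over all tested genes, 2300 were called in either direction between HFD+veh and ND+veh in that fit. The matching numbers by direction and for the comparisons of HFD+eRapa are not given here, so the member counts of this fit have no full background beside them. Against ND+veh, HFD+eRapa then had 2 members called higher, Ifih1 (log2 fold change 0.59, edgeR adjusted p = 0.0298) and Irf9 (0.47, edgeR adjusted p = 0.0135), and Irf1 was no longer called.

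Macrophage marker sums differed widely between animals of a group, and their values are set beside those of the members as a description. ND+veh replicate 1 had the lowest sum of its group (75.5 CPM) and its lowest Ifih1 (25.0 CPM) and Irf7 (10.1 CPM), and HFD+veh replicate 6 had the highest sum of all animals (7905 CPM) and the highest Ifih1 (186 CPM). HFD+veh replicates 1 and 2 had macrophage marker sums of 367 and 364 CPM, within the ND+veh range and close to its median. Their Ifih1 levels of 76.3 and 77.2 CPM and Irf7 levels of 85.9 and 98.0 CPM were above those of all ND+veh animals but replicate 4. HFD+veh replicate 5 had a macrophage marker sum of 3724 CPM, the median of its group, and the lowest Ifih1 and Irf7 levels of that group. ND+veh replicate 4 had a sum of 760 CPM, below replicate 8 of the same group at 1786 CPM, whose Ifih1 was 41.0 CPM. Mavs was at its lowest, 44.5 CPM, in HFD+veh replicate 6. The part of macrophages in these levels was not tested.

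**Figure D3:**
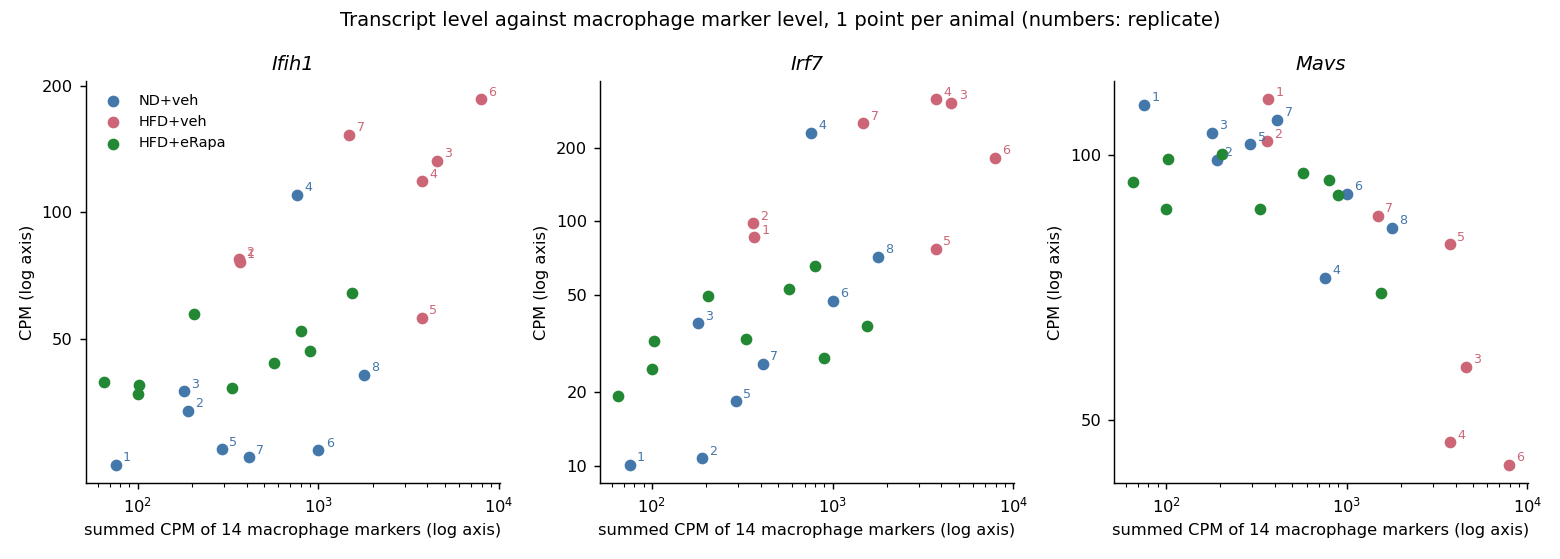
CPM of Ifih1, Irf7 and Mavs (vertical log axes) against the summed CPM of 14 macrophage markers (horizontal log axes), with 1 point per animal and replicate numbers for ND+veh and HFD+veh. HFD+veh replicates 1 and 2 stand above ND+veh animals with like marker sums for Ifih1 and Irf7, and Mavs is lowest at the right, where HFD+veh replicates 3, 4 and 6 lie.

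In the fit that held the immune marker score, 3 members were still called above ND+veh in HFD+veh, namely Ifih1 (log2 fold change 1.08, edgeR adjusted p = 0.0185), Ddx58 (0.97, edgeR adjusted p = 0.019) and Irf9 (0.71, edgeR adjusted p = 0.00463). Between HFD+eRapa and HFD+veh, Ddx58 (-0.98, edgeR adjusted p = 0.0267) and Irf1 (-0.83, edgeR adjusted p = 0.00253) were still called lower. Over all 13847 tested genes this fit called 1258 in HFD+veh against ND+veh and 884 in HFD+eRapa against HFD+veh, in either direction. The other members that had been called kept their direction in both comparisons. The score itself ran from -0.48 to 1.85 in HFD+veh, -1.16 to 0.74 in ND+veh and -1.50 to 0.52 in HFD+eRapa, so it differed between the groups that it adjusts.

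Levels of different genes were compared as FPKM, which divides by gene length. In ND+veh the mean FPKM of Irf3 was 34.4 ± 6.27 (SD, n = 8), that of Irf7 was 33.9 ± 50.1 and that of Mavs was 31.7 ± 3.87. Irf3 exceeded Irf7 in 6 of 8 of these animals. In HFD+veh Irf7 stood first at 102.6 ± 61.8 FPKM (SD, n = 7), above the next member, Zbp1 at 39.4 ± 22.5 FPKM, in 7 of 7 animals. The order from Ddx58 at 26.8 to Stat2 at 18.0 FPKM was not settled in that group, since neighbours such as Ddx58 and Irf3, Irf3 and Irf9, and Irf9 and Mavs kept their order in only 4 of 7 animals each. In HFD+eRapa Mavs (27.7 ± 3.98 FPKM, SD, n = 9) and Irf3 (27.2 ± 5.02 FPKM) stood first with no clear order between them, and Irf3 exceeded Irf7 (19.5 ± 8.12 FPKM) in 9 of 9 animals. Dhx58 was the lowest member in ND+veh and HFD+eRapa, at 8.20 ± 9.33 and 6.10 ± 1.99 FPKM.

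Ratios within an animal put the inducible members against those that were not called. The ratio of Irf7 to Irf3 FPKM had a lowest, median and highest value of 0.129, 0.528 and 3.91 in ND+veh, 1.35, 4.72 and 8.17 in HFD+veh, and 0.355, 0.787 and 0.993 in HFD+eRapa. Irf7 therefore exceeded Irf3 in all 7 HFD+veh animals and in no HFD+eRapa animal. The ratio of the sensor Ifih1 to its adaptor Mavs was 0.137, 0.204 and 0.955 in ND+veh, 0.423, 1.14 and 2.60 in HFD+veh, and 0.241, 0.294 and 0.596 in HFD+eRapa. In both ratios ND+veh replicate 4 was the highest of its group and lay among the HFD+veh animals. These ratios were chosen with the values known and are given as a description.

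**Figure D4:**
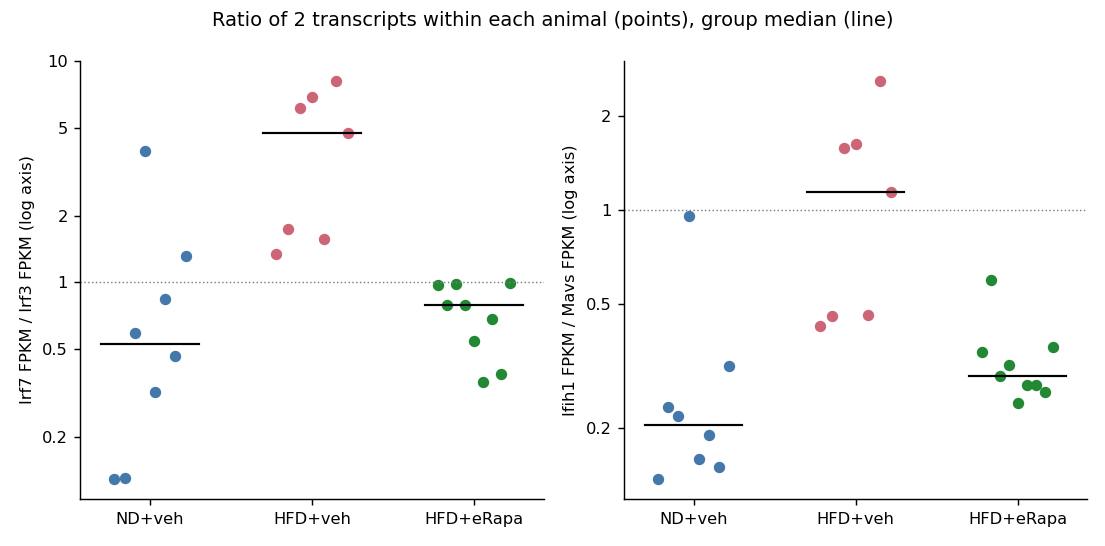
Ratio of Irf7 to Irf3 FPKM (left) and of Ifih1 to Mavs FPKM (right) in each animal on log axes, with the group median as a line and a dotted line at 1. All 7 HFD+veh animals are above 1 for Irf7 to Irf3 and all 9 HFD+eRapa animals are below it.

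Upstream of the receptor, transcripts of the interferons themselves were barely present. Of 20 type I, II and III interferon genes, 16 had no count in any of the 24 libraries, and the other 4 had 59 counts in all. Ifng accounted for 45 of these, Ifnk for 9, Ifnb1 for 4 in a single library and Ifnl2 for 1. None could be tested, so no difference in ligand transcripts was detectable at this depth. The type I receptor subunits were well measured and were not called in HFD+veh against ND+veh, with log2 differences of 0.06 ± 0.09 for Ifnar1 (edgeR adjusted p = 0.667) and -0.02 ± 0.11 for Ifnar2 (edgeR adjusted p = 0.921). The receptor kinase Tyk2 did not pass the test either (edgeR adjusted p = 0.987), while its partner Jak1 rose from 103 ± 11.1 CPM (SD, n = 8) to 154 ± 47.1 CPM (SD, n = 7; edgeR adjusted p = 0.00548). Of 8 tested receptors and kinases, 4 rose in HFD+veh, led by Il10rb (log2 fold change 1.98 ± 0.56, edgeR adjusted p = 0.0148), a subunit shared with the interleukin 10 receptor, and Ifngr1, a subunit of the interferon gamma receptor (1.09 ± 0.35, edgeR adjusted p = 0.0268). In HFD+eRapa 5 of the 8 were lower than in HFD+veh. The rise of Il10rb was not called without HFD+veh replicate 6 (1.43, edgeR adjusted p = 0.0696), that of Ifngr1 was lost without HFD+veh replicate 3, 4 or 6 or ND+veh replicate 1 or 2, and with the immune score as covariate 0 of the 8 were called in either comparison.

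Other nucleic acid sensors were higher in HFD+veh in 9 of 10 cases and lower with eRapa than in HFD+veh in 9 of 10, with Ddx41 outside both counts. The largest differences were those of the endosomal receptors Tlr7, Tlr9 and Tlr8, which are mostly known from immune cells. Tlr7 had a lowest, median and highest level of 0.305, 1.02 and 12.9 CPM in ND+veh, 1.15, 14.4 and 192.5 CPM in HFD+veh, and 0.0513, 0.716 and 10.5 CPM in HFD+eRapa. The highest of these was HFD+veh replicate 6, without which the mean of that group went from 40.5 to 15.2 CPM. Its log2 differences were 3.80 ± 1.13 for the diet (edgeR adjusted p = 0.0186) and -3.95 ± 1.09 between HFD+eRapa and HFD+veh (edgeR adjusted p = 0.00852). Neither was called without HFD+veh replicate 6 (2.33, edgeR adjusted p = 0.124, and -2.44, edgeR adjusted p = 0.0814), and the rise of Tlr8 was lost in 10 of the 24 fits that left out a library (HFD+veh replicate 3, 4 or 6 or ND+veh replicate 1 to 7). In the fit that held the immune marker score, 1 of these 10 sensors was called higher with the diet and 0 lower with eRapa. Without ND+veh replicate 4 and HFD+veh replicate 6 the counts were 7 and 7.

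Of the 17 adaptors and kinases between sensors and IRFs, 2 were called higher in HFD+veh and none lower, where 16.0% of all tested genes were called higher. These were Tank (log2 fold change 0.68 ± 0.19, edgeR adjusted p = 0.0128) and Tbk1, the kinase of IRF3 (0.35 ± 0.12, edgeR adjusted p = 0.0308). Tank was not called without HFD+veh replicate 6, and the rise of Tbk1 was lost without HFD+veh replicate 3, 4 or 6 or ND+veh replicate 1, 2, 5 or 6. In HFD+eRapa 5 of the 17 were lower than in HFD+veh and 1 was higher, beside 21.1% of all tested genes called lower. They included Sting1, the adaptor of the DNA sensor cGAS (-2.46 ± 0.73, edgeR adjusted p = 0.0128, and -1.67 with edgeR adjusted p = 0.0829 without HFD+veh replicate 6), and the kinase Ikbke (-0.59 ± 0.17, edgeR adjusted p = 0.0112). Ikbke was the only one of the 17 called between HFD+eRapa and ND+veh, at 17.3 ± 2.24 against 30.1 ± 9.79 CPM (log2 fold change -0.80 ± 0.17, edgeR adjusted p = 0.00198). In the immune score fit, 1 of the 17 was called higher with the diet and 1 lower with eRapa than in HFD+veh. The median log2 difference of the 17 genes was 0.18 in HFD+veh against ND+veh, beside 0.05 over all genes.

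Regulators of RNA sensing were higher in HFD+veh in 5 of 15 cases, led by Usp18, a brake on the type I receptor (log2 fold change 1.88 ± 0.52, edgeR adjusted p = 0.013), and Nlrc5 (1.07 ± 0.27, edgeR adjusted p = 0.00687). In HFD+eRapa 7 of the 15 were lower than in HFD+veh and 1 was higher. Usp18 (-2.22 ± 0.50, edgeR adjusted p = 0.00275) and the ubiquitin-editing enzyme Tnfaip3 (-1.81 ± 0.48, edgeR adjusted p = 0.00678) were among those that were lower. In the immune score fit 2 of the 15 were called higher and 1 lower with the diet, and 1 was lower with eRapa than in HFD+veh. Of 5 genes around Zbp1, its necroptosis partners Ripk3 and Mlkl and the RNA-editing enzyme Adar rose with the diet. Ripk3 was at 1.28 ± 1.37, 5.23 ± 4.47 and 0.705 ± 0.594 CPM (mean ± SD) in the 8 ND+veh, 7 HFD+veh and 9 HFD+eRapa animals. Adar rose 2.02-fold with the diet (1.01 ± 0.22, edgeR adjusted p = 0.00296) and all 3 genes were lower with eRapa than in HFD+veh. In the immune score fit 1 of the 5, Adar, was called higher with the diet (0.86, edgeR adjusted p = 0.0262) and 0 lower with eRapa. The rise was lost in 12 of the 24 fits that left out a library for Ripk3, among them HFD+veh replicates 3 to 6, and in 9 for Mlkl, among them HFD+veh replicates 3, 4 and 6.

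A list of the remaining interferon regulatory factors, which also holds genes of IRF2-binding proteins (Irf2bp2 and Irf2bpl), split by direction. Of 7 tested genes of this list, 3 rose and 3 fell in HFD+veh, and 3 were lower and 3 higher with eRapa than in HFD+veh. These counts are therefore not of interferon regulatory factors alone. Irf8, a factor of myeloid and dendritic cells, rose from 5.36 ± 4.70 CPM (SD, n = 8) to 22.8 ± 18.3 CPM (SD, n = 7; edgeR adjusted p = 0.0251) and was at 3.43 ± 2.52 CPM in HFD+eRapa (SD, n = 9). The rise of Irf8 was lost without HFD+veh replicate 3, 4 or 6 or ND+veh replicate 1. Irf5 rose 3.96-fold (log2 fold change 1.99 ± 0.33, edgeR adjusted p = 0.000346). Irf2bp2, a partner of IRF2, fell in HFD+veh (-0.90 ± 0.27, edgeR adjusted p = 0.0208) and was also lower in HFD+eRapa than in ND+veh (-0.96 ± 0.25, edgeR adjusted p = 0.0119). In the immune score fit 2 of the 7 were called higher and 2 lower with the diet, and 1 was higher and 1 lower with eRapa than in HFD+veh.

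Downstream, 22 of 25 type I interferon target genes rose in HFD+veh and 24 were lower with eRapa than in HFD+veh. The median log2 difference of the 25 genes was 2.07 for the diet and -2.81 for HFD+eRapa against HFD+veh. Ifit2, an interferon-induced protein that binds RNA, had a lowest, median and highest level of 0.454, 2.73 and 20.3 CPM in ND+veh, 3.97, 38.0 and 277 CPM in HFD+veh, and 0.788, 3.24 and 8.16 CPM in HFD+eRapa. Without HFD+veh replicate 6, the highest, the mean of that group went from 71.5 to 37.2 CPM, and Ifit2 was called in all 24 fits that left out a library. Oas3, a synthase of the messenger that activates RNase L, rose 9.81-fold (log2 fold change 3.29 ± 1.01, edgeR adjusted p = 0.0215, and 0.0666 without HFD+veh replicate 6) and was lower with eRapa than in HFD+veh by -4.60 ± 1.03 (edgeR adjusted p = 0.00255). In the fit that held the immune marker score the counts were 5 of 25 for the diet and 2 of 25 for eRapa, and without ND+veh replicate 4 and HFD+veh replicate 6 they were 24 and 24. Bst2, which tethers budding virus, was the only one called between HFD+eRapa and ND+veh (-1.24 ± 0.24, edgeR adjusted p = 0.00114). Among 14 genes known as targets of IRF1, 13 rose with the diet and all 14 were lower with eRapa than in HFD+veh, led by the guanylate-binding proteins Gbp2 (2.67 ± 0.66, edgeR adjusted p = 0.00692) and Gbp3 (2.40 ± 0.70, edgeR adjusted p = 0.0176). With the covariate these counts were 6 and 5. Without ND+veh replicate 4 and HFD+veh replicate 6 the genes called higher with the diet were 2 receptors and kinases, 0 adaptors and kinases, 6 regulators, 2 genes around Zbp1, 2 genes of the list of remaining interferon regulatory factors and 11 IRF1 targets. The genes called lower with eRapa than in HFD+veh were then 4, 3, 6, 3, 3 and 13 of the same lists. Usp18 and Nlrc5 each stand in 2 of these lists, and the lists were chosen with results of these libraries known.

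**Figure D5:**
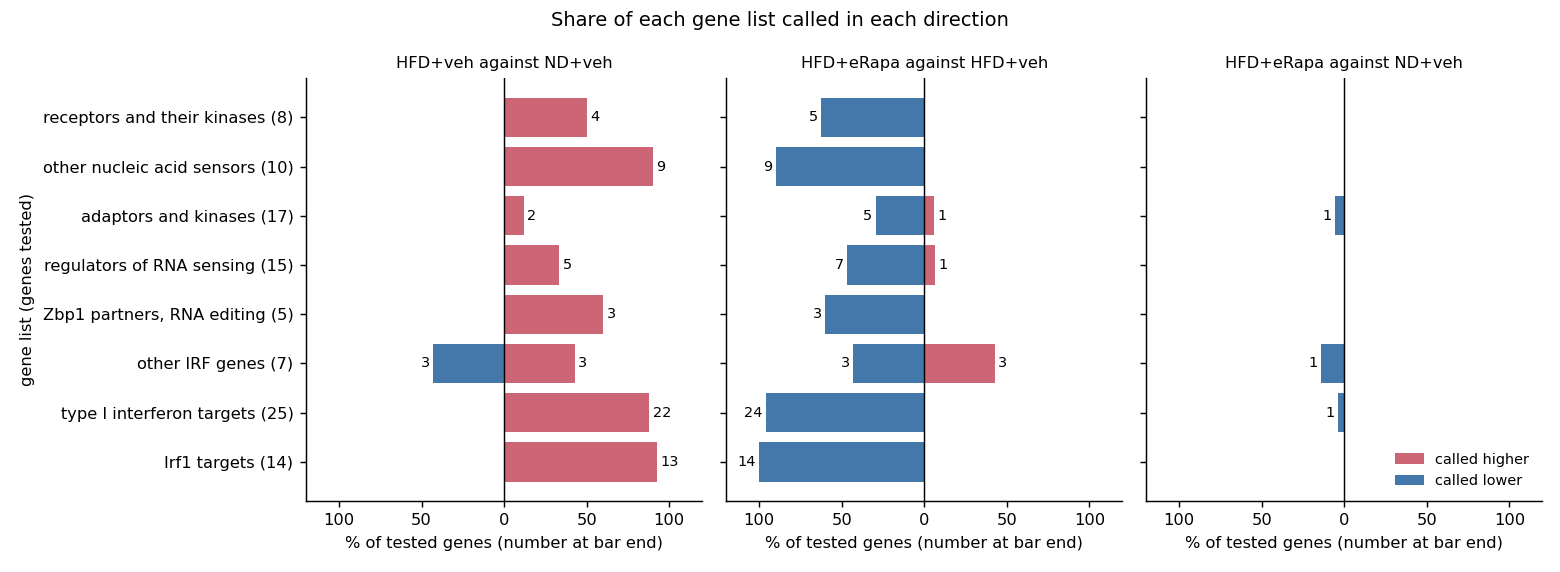
Share of the tested genes of 8 lists (rows, with the number tested) that were called higher (right of 0) or lower (left of 0) in each comparison, with the number of genes at each bar end. Type I interferon targets, Irf1 targets and other sensors fill most of their bars to the right in the first panel and to the left in the second, while adaptors and kinases stay short and the third panel is almost empty.

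The members also differed in which genes varied with them across the 24 libraries. These likenesses are Pearson correlations of log2 CPM over all groups together among 7799 genes, they share library and group, and they are given as a description. Zbp1 was most like Usp18 (r = 0.99), with r = 0.979 once group means were removed. Dhx58 was most like Parp12 (r = 0.978) and Isg15 (r = 0.977), Irf7 was most like Lgals3bp (r = 0.972) and Ifi44 (r = 0.969), and Ddx58 was most like Parp14 (r = 0.968). Ifih1 and Irf9 both had Ifit1 among their nearest genes (r = 0.977 and 0.948). Mavs stood with other genes altogether, the urea-cycle enzyme Nags (r = 0.935) and the plasma enzyme Lcat (r = 0.932), which hepatocytes are known to make. Irf3 was most like Ino80b (r = 0.956), a subunit of a chromatin remodeller, and Stat2 was most like Ddx24 (r = 0.89). Irf1 had the loosest likeness, with r = 0.854 to Tcirg1 and 0.583 after group means were removed.

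Among the members themselves, Ifih1 and Ddx58 varied together most closely (r = 0.97 over 24 libraries, 0.963 without group means). Zbp1 was close to Dhx58 (r = 0.969) and to Irf7 (r = 0.968). Mavs went with Irf3 (r = 0.75) and against Ifih1 (r = -0.715) and Ddx58 (r = -0.723). Stat2 was nearly unrelated to Irf3 (r = 0.0204) and only loosely related to its partner Irf9 (r = 0.524).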

How the data were processed

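Hepatocyte RNA of 24 mice was sequenced by the authors, who aligned reads with STAR to mm10 with Gencode M23, filtered them with SAMtools 1.1.0 and counted reads per gene with HTSeq 0.11.2. The deposited counts are raw whole numbers, and the deposited FPKM values are the authors' Cufflinks output. Whether counting used strand is not given in the sources used here, so overlapping and antisense genes are uncertain. Groups and replicate numbers came from the sample labels. All libraries carry 1 batch label, which permits no batch comparison. The labels number the libraries without naming animals, so each library was read as 1 animal, and p-values measure the spread between these samples. Total counts were 17.7 to 25.9 M. No pair of libraries of a group agreed within sampling noise (chi-square per degree of freedom at least 11.3 over 85 pairs).

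The 10 members and the gene lists were chosen with earlier results of these data known. All 24 libraries and 3 groups were fitted together without covariates in edgeR 4.0.16 (R 4.3.3) with filterByExpr, TMM, robust glmQLFit and glmQLFTest, and Benjamini-Hochberg adjustment ran over 13847 genes. The study itself used DESeq2. Standard errors (SE) were taken as log2 fold change over the root of F, and log2 CPM used a prior count of 2. All members were named. Of each pathway list, up to 3 called genes with the largest change were named per comparison, and interferon ligands, type I receptor subunits and their kinases whether called or not. Alternatives were DESeq2 1.42.0, limma 3.58.1 voom, DESeq2 size factors, no filter, at least 10 counts in every library, only the groups compared, the replicate block, an immune marker score, limma on log2(FPKM + 0.1) and log2(FPKM + 1) or with a mean FPKM of at least 1, and each library left out. The fits were first tested on simulated data. Gene coordinates are from Gencode M21 (GRCm38, the assembly of mm10). Some items are not reported here.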

Additional observations from a re-analysis of the deposited data

Results flagged for a closer look

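In 6 of 30 groups of values (10 members in 3 groups), the most extreme animal stood farther from the others than Dixon's 95% limit allows, where chance gives about 1.5. Levels are log2 CPM. ND+veh replicate 4 was such an animal for all 3 helicases. Its Ifih1 was 6.79 against 4.65 to 5.36 in the other 7 animals, its Ddx58 was 6.40 against 4.62 to 5.33, and its Dhx58 was 5.86 against 2.90 to 4.16. The macrophage marker sum of this animal, 760 CPM, was inside its group's range of 75.5 to 1786 CPM and above the group median of 353 CPM. Its hepatocyte marker sum of 61590 CPM was the lowest of its group. Its cholangiocyte marker sum of 20.8 CPM was the highest, followed by 8.4 CPM in ND+veh replicate 1.

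In HFD+veh, Irf3 was 4.13 in replicate 6 against 5.05 to 5.62 in the others, beside the highest macrophage marker sum of all animals (7905 CPM). Stat2 was 5.78 in HFD+veh replicate 5 against 6.46 to 6.68. In HFD+eRapa, Mavs was 6.13 in replicate 2 against 6.44 to 6.65, and that animal had the highest macrophage marker sum of its group (1542 CPM). The part of other cells in these values was not tested.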

How the results depend on the processing

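Over all tests of members outside the left-out libraries, 289 kept direction and side of the threshold, 21 lost a call, 1 gained a call and 19 changed sign. Where libraries were left out, 709 kept both, 19 lost a call, 6 gained a call and 16 changed sign. The covariate changed the members most, and the cause was not tested. With it, 3 members were called in HFD+veh against ND+veh and 2 in HFD+eRapa against HFD+veh, and the latter difference turned to -0.081 for Mavs and -0.10 for Irf3. With it the genes called were 1258, 884 and 2801 in the comparisons of HFD+veh with ND+veh, HFD+eRapa with HFD+veh and HFD+eRapa with ND+veh, against 3584, 4432 and 1865. Other counts that moved by over 1.5 times in the first comparison were 2333 with only the groups compared, 2242 with log2(FPKM + 0.1), 1986 with a mean FPKM of at least 1 and 2300 without both ND+veh replicate 4 and HFD+veh replicate 6. In the second they were 2809 with at least 10 counts in every library, 2499 with a mean FPKM of at least 1 and 2532 with the replicate block, and in the third 1239 with a mean FPKM of at least 1. With 1 library left out, genes called ran from 2106 (without HFD+veh replicate 6) to 4479, from 3269 to 5061 and from 1462 to 2232, and members called from 6 to 9, 7 to 7 and 0 to 1. In the first comparison, 2218 genes were higher and 1366 lower, against 595 and 663 with the covariate and 988 and 1118 without HFD+veh replicate 6.

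The single member called in HFD+eRapa against ND+veh, Irf1, gave 0 calls with voom, DESeq2 size factors, no filter, at least 10 counts in every library and all 3 FPKM fits, and 2 members were called without both libraries. Differences near 0 changed sign in that comparison. Ddx58 was 0.0011 with voom and ran from -0.17 to 0.20 where libraries were left out. Dhx58 was 0.033 with voom and ran from -0.33 to 0.36. Zbp1 was 0.16 with voom, 0.24 with log2(FPKM + 0.1) with and without the mean FPKM filter and 0.14 with log2(FPKM + 1), and ran from -0.61 to 0.64. Irf7 was 0.088 with voom and 0.0013 with log2(FPKM + 0.1) with and without that filter, and ran from -0.74 to 0.28. Stat2 was 0.0027 with DESeq2, 0.031 with voom, 0.0029 with DESeq2 size factors, 0.011 with no filter and 0.00068 with only the groups compared, and ran from -0.052 to 0.088. Among the fits that left out libraries, the values above 0 for Ddx58, Dhx58, Zbp1 and Irf7 came where ND+veh replicate 4 was left out.

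Replicate numbers are shared between groups but belong to different animals. The mean correlation of same-numbered libraries was 0.316 (from -0.36 to 0.73), -0.24 and -0.20 in the 3 comparisons, so the numbers did not pair the animals. With the replicate block 7, 7 and 1 members were called, and 2461, 2532 and 1575 genes. The block turned the differences between HFD+eRapa and ND+veh to 0.063 for Dhx58, 0.26 for Zbp1 and 0.069 for Irf7. Depth kept all 20 interferon ligands and 9 of 10 T and NK cell markers from being tested, and also 4 of 6 B cell, 4 of 7 neutrophil, 3 of 8 dendritic cell and 3 of 6 cholangiocyte markers, 1 receptor and 1 interferon regulatory factor.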
